A study of Mus musculus with 3 samples.

Results

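Macrophages loosen and remodel the matrix around them with secreted and membrane-bound proteases, and 9 genes of that machinery were examined in RAW264.7 cells stimulated with LPS: Mmp9, Mmp12, Mmp13, Mmp14, Mmp19, Timp1, Plau, Plaur and Serpinb2. They were chosen by gene name, and all probes carrying one of these names were used, which gave 14 of the 56605 probes and 9 of the 36870 gene names on each array. RAW264.7 is a mouse macrophage line kept in culture, so each sample held a single cultured line and no tissue. The 3 conditions analysed here were macrophages given LPS alone (LPS), macrophages given Lactiplantibacillus plantarum LOC1 before LPS (LOC1+LPS), and macrophages given L. plantarum LOC3 before LPS (LOC3+LPS). Both strains were isolated from tea leaves. RNA was taken 3 h after LPS, which was used at 50 ng/mL by the methods and at 100 ng/mL by the results text of the study, and the bacteria were present beforehand for 12 h by the labels and for 24 h by the methods. Each condition was measured on 1 array, so differences between conditions carry no SD and no test, and "rose" and "fell" mean a difference of at least 2-fold. The array of unchallenged macrophages was not analysed here, and values against it are the authors' deposited log2 ratios.

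Matrix metalloproteases (MMPs) are zinc enzymes made as inactive proenzymes that lose an inhibitory propeptide before they cut collagens, elastin and other matrix proteins, and also cytokines and chemokines. Tissue inhibitors of metalloproteases (TIMPs) bind the active enzymes and block them. The plasminogen system feeds into the same process: urokinase, held at the cell surface by its receptor, turns plasminogen into plasmin, which cuts fibrin and can activate pro-MMPs, while serpins such as PAI-2 inhibit urokinase. In macrophages, many of these genes respond to Toll-like receptor signals, and Mmp12, macrophage elastase, is named for its main source.

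The promoters of the genes show which recognition letters lie before their start sites. RefSeq windows of 250 bases before a start site (GRCm38.p6) were given for 6 of the 9 genes, with 8 start sites in all. None was given for Mmp9, Mmp19 or Plau. The letters TGANTCA, a match to the AP-1 element that many inducible protease genes carry, were found on either strand in the windows of 4 of these 6 genes, Mmp12, Mmp13, Plaur and Serpinb2. By window this was 5 of the 8, beside 6.75% of all 32851 promoters. TATAAA was found for 2 genes, Mmp13 and Serpinb2, and in 12.4% of all promoters. GAGGAAG, a PU.1-type match, was found for Mmp12 and Plaur, and in 10.6% of all promoters. Neither GGANTTTCC, an NF-kB-type match (1.07% of promoters), nor TGACGTCA, the cAMP response element (1.55%), was in any of the windows, which says only that these letters are not there. A match of letters is a description and not a site of binding, and no binding was measured. The 150 bases before the start site of the 4 genes with TGANTCA are shown for comparison, all on the + strand, with the matches to TGANTCA and TATAAA in capitals.
Mmp13, chr9:7272364-7272513: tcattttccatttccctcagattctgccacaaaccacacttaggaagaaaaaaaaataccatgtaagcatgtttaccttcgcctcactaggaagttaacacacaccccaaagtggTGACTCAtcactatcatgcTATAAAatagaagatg
Mmp12, chr9:7347224-7347373: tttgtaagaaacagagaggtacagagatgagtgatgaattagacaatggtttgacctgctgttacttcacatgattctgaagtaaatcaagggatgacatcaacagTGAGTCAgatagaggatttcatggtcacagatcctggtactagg
Plaur, chr7:24462333-24462482: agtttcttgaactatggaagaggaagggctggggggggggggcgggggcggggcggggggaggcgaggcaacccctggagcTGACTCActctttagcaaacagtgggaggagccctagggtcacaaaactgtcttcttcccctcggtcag
Serpinb2, chr1:107511273-107511422: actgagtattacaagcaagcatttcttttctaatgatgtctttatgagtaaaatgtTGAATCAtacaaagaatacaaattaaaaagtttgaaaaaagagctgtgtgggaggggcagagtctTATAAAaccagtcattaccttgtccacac
Counted to its first base, the match lay 35 bases before the start site in Mmp13, 44 in Mmp12, 69 in Plaur and 94 in Serpinb2. Serpinb2 has a further start site at position 107511510, and the same match lay 181 bases before it. Mmp12 has another start site at position 7344397, whose window holds the PU.1-type letters and no TGANTCA, and the stretch shown lies downstream of it. None of the matches overlapped another.

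For the comparisons between arrays, each intensity was expressed as log2 over the 75th percentile of its array (an intensity of 555 for LPS, 513 for LOC1+LPS and 516 for LOC3+LPS), and the brightest probe stood for its gene. Spot noise, read from probes printed many times on each array, gave an SD of 0.06 for a log2 difference of a bright probe and 0.28 to 0.31 for a dim one, meaning a mean over 2-fold below that percentile. The SD of bright probes rested on 269 probes and that of dim probes on 10 to 12. This is the noise of spots within an array, combined over both arrays of a pair. It is not the spread between arrays or between cultures, which was not measured. Of the 9 genes, 8 were well above background on all 3 arrays, through 11 of the 14 probes, and Mmp14 was on none. Against LPS, 1 of the 8 genes fell with LOC1, none rose and 7 lay under 2-fold, while 2.49% of the 20042 genes compared rose and 3.82% fell. With LOC3, all 8 lay under 2-fold by their brightest probe, where 3.00% of the 19821 genes compared rose and 3.18% fell. The median log2 difference of the 8 genes was -0.04 with LOC1 and -0.21 with LOC3, beside 0.00 and 0.03 for all genes compared. The gene that fell was Mmp12. The split of calls over all genes depended on the scaling. Scaled to their median, which put the median of all genes at 0.22 with each strain, the arrays gave 885 genes higher and 474 lower with LOC1. With LOC3 this scaling gave 872 and 394. Quantile normalization gave 628 and 612 with LOC1 and 708 and 511 with LOC3. In the setting used, the counts were 499 and 765 with LOC1 and 595 and 630 with LOC3.

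**Figure D1:**
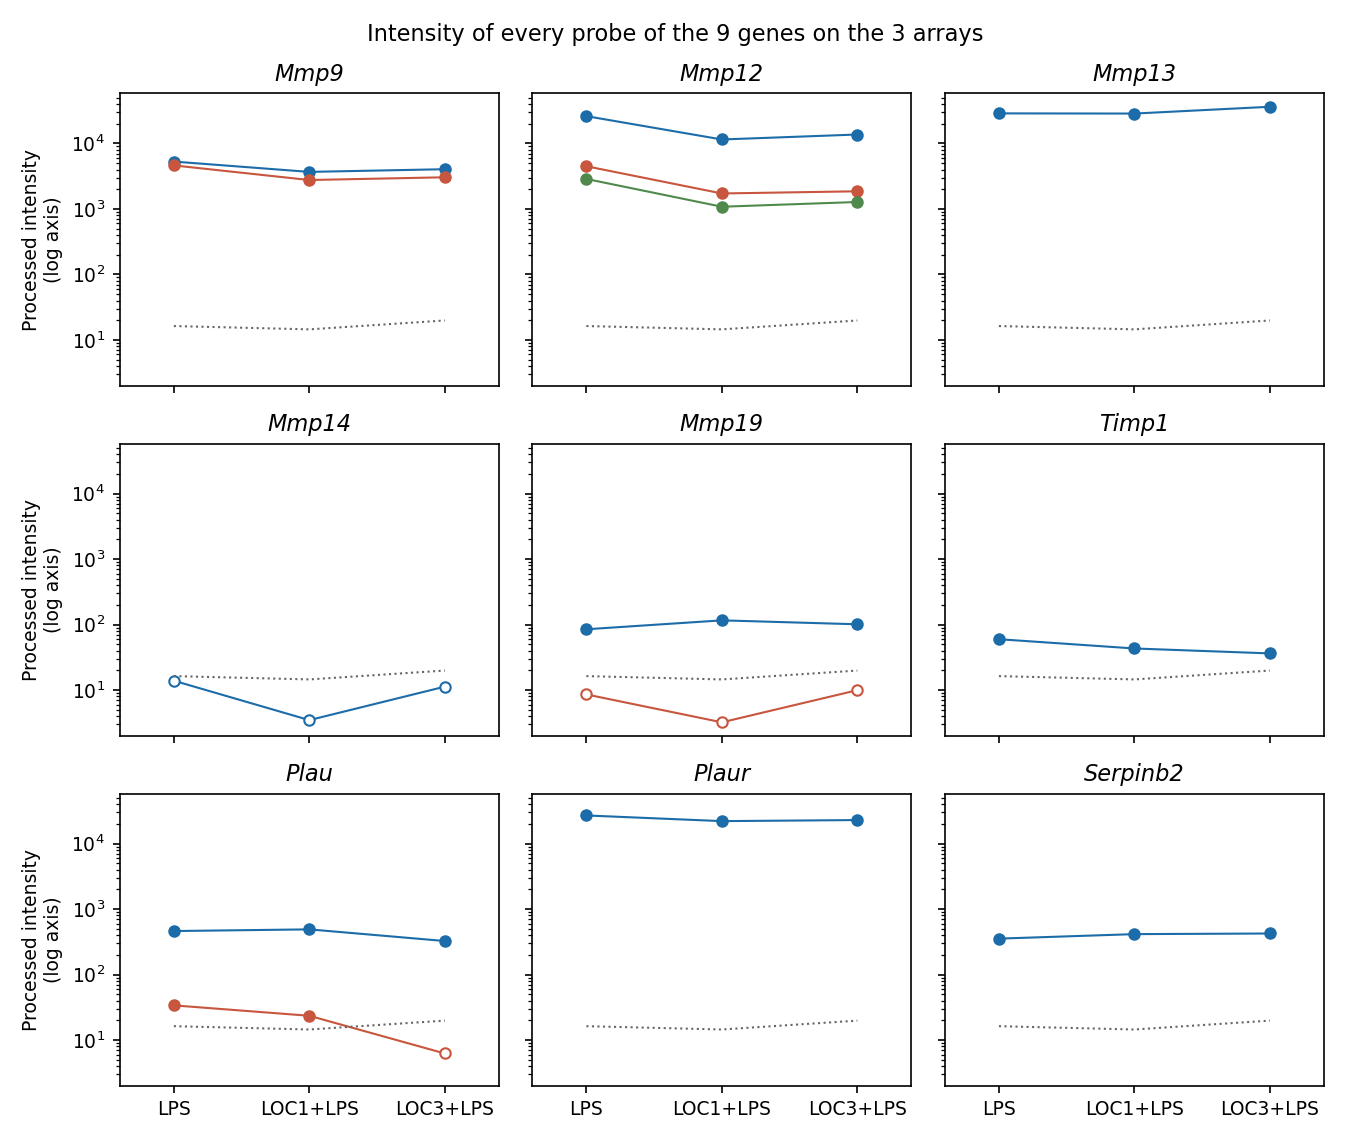
Processed intensity (log axis) of each of the 14 probes on the LPS, LOC1+LPS and LOC3+LPS arrays, 1 panel per gene and 1 colour per probe; open symbols were not well above background and the dotted line is the lowest intensity well above background on each array. All 3 Mmp12 probes were lower on both arrays with lactobacilli than with LPS alone, and Mmp14 stayed under the line on all 3 arrays.

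Mmp12, macrophage elastase, cuts elastin and other matrix proteins and is on mouse chromosome 9 in a cluster of MMP genes. Its brightest probe (mm9, chr9:7358559-7358618) read 26123 with LPS, 11501 with LOC1+LPS and 13701 with LOC3+LPS. Both readings with lactobacilli lay below LPS alone. For LOC1 the log2 difference came to -1.07, 2.10-fold lower, and for LOC3 to -0.83, 1.77-fold lower. These differences were 18.9 and 13.0 times the spot SD. Of all genes compared, 3.22% had a lower difference with LOC1 and 5.04% with LOC3. When arrays were scaled to their median, the difference with LOC1 was -0.85 and no longer reached 2-fold. In RNA of a whole culture, fewer cells expressing a gene and less of its RNA per cell cannot be told apart.

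The other Mmp12 probes gave larger differences in the same direction. The probe at chr9:7354810-7355325, whose 60 bases span 516 bases of the genome, read 4490, 1724 and 1861 in the order LPS, LOC1+LPS and LOC3+LPS. Its log2 difference was -1.27 (2.41-fold lower) for LOC1 and -1.17 (2.25-fold lower) for LOC3. The probe at chr9:7352935-7352994 read 2871, 1082 and 1278, at log2 differences of -1.30 (LOC1) and -1.06 (LOC3). All 3 probes thus passed 2-fold with LOC1, whereas with LOC3 the brightest one did not and the other two did. These other two probes are shown as printed on the array, since the call with LOC3 turns on which probe is read, and no letters are marked.
Mmp12 probe at chr9:7354810-7355325: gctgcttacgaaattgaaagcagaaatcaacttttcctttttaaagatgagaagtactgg
Mmp12 probe at chr9:7352935-7352994: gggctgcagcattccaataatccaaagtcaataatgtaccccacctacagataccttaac
Over the 2038 genes with at least 3 detected probes, the SD between probes of a gene had a median of 0.23 with LOC1 and 0.24 with LOC3. The exon or untranslated region that each probe lies in was not read, because no annotation of mm9 was used here.

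Against unchallenged macrophages, the deposited table listed Mmp12 with LPS alone at a log2 ratio of 1.08, or 2.12-fold higher, through the probe that spans 516 bases. The cells for LOC1+LPS and LOC3+LPS were blank for that probe. Rebuilt from the intensities, they came to -0.15 and -0.05, so that on this probe the level with either strain lay close to the level implied for unchallenged macrophages. Ratios of the other Mmp12 probes were not listed.

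Mmp13, collagenase-3, cuts fibrillar collagens and lies next to Mmp12 in the RefSeq order of chromosome 9. Its probe (chr9:7282762-7282821) read 28796 with LPS, 28613 with LOC1+LPS and 36321 with LOC3+LPS. The log2 difference from LPS was 0.10 with LOC1 and 0.44 with LOC3, both under 2-fold. The deposited log2 ratios to unchallenged macrophages were 5.16 with LPS, or 35.8-fold higher, 5.30 with LOC1+LPS and 5.64 with LOC3+LPS. Mmp13 therefore rose with LPS on every array, and its scaled value with each strain was not below that with LPS alone, unlike that of Mmp12.

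The MMP cluster of chromosome 9 holds 10 Mmp genes in RefSeq, and 4 of them were well above background on all 3 arrays. In their order along the chromosome these were Mmp13, Mmp12, Mmp10 and Mmp8. Mmp10, stromelysin-2, can activate other pro-MMPs, and it read 275 with LPS, 153 with LOC1+LPS and 178 with LOC3+LPS. Relative to LPS these are log2 differences of -0.73 and -0.52, under 2-fold, and its deposited ratio with LPS was 2.81. Mmp8, neutrophil collagenase, was dim and had a log2 difference of -0.08 with each strain. Mmp1a, Mmp1b, Mmp3, Mmp7, Mmp20 and Mmp27 were not well above background on any array.

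Mmp9, gelatinase B, cuts denatured collagens and type IV collagen of basement membranes. Its brightest probe (chr2:164779091-164780300, 60 bases across 1210 bases of the genome) read 5290 with LPS, 3680 with LOC1+LPS and 4046 with LOC3+LPS. Its second probe (chr2:164780620-164780679) read 4622, 2766 and 3046 in the same order. Both probes were below LPS with both strains. The log2 differences were -0.41 and -0.63 with LOC1, and -0.28 and -0.50 with LOC3, under 2-fold on each probe. When arrays were scaled to their median, the brightest probe differed by -0.19 with LOC1 and -0.10 with LOC3. Of all genes, 17.9% had a lower difference than the brightest probe with LOC1 and 21.1% with LOC3. No ratio to unchallenged macrophages was listed for Mmp9.

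Mmp19 is a secreted MMP that acts on basement membrane proteins. It had a dim probe (chr10:128237761-128237820) that read 84.7 with LPS, 116 with LOC1+LPS and 101 with LOC3+LPS. Against LPS this was a log2 difference of 0.56 for LOC1 and 0.36 for LOC3, which is 2.04 and 1.16 times the spot SD of dim probes, and both lay under 2-fold. With LPS alone Mmp19 was listed at -1.39 against unchallenged macrophages, or 2.63-fold lower. The blank cells of the other columns came to -0.80 with LOC1+LPS and -1.0 with LOC3+LPS when rebuilt, the latter just inside the threshold. The other Mmp19 probe (chr10:128235282-128235341) was not well above background on any array.

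Mmp14, membrane-type 1 MMP, is anchored in the plasma membrane and activates pro-MMP2. Its probe (chr14:55058775-55058834) read 13.9 with LPS, 3.47 with LOC1+LPS and 11.3 with LOC3+LPS. None of these was well above background, so no difference is given. A log2 ratio of 2.0 was listed with LPS and of 1.84 with LOC3+LPS, and both rest on signals at background. Mmp2 itself, gelatinase A, was not well above background on any array.

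Timp1 encodes an inhibitor of most secreted MMPs. Its probe (chrX:20451675-20451733) was dim and read 59.7 with LPS, 43.1 with LOC1+LPS and 36.3 with LOC3+LPS. The log2 differences from LPS were -0.36 for LOC1 and -0.62 for LOC3, or 1.29 and 2.0 times the spot SD of dim probes, and neither passed 2-fold. With another background correction (normexp) they were -0.095 and -0.19. Timp2, a related inhibitor, had detected probes on opposite sides of LPS, with log2 differences of -0.51 and 0.61 for LOC1 and -0.53 and 0.46 for LOC3, brightest probe first and all under 2-fold. No ratio to unchallenged macrophages was listed for Timp1.

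**Figure D2:**
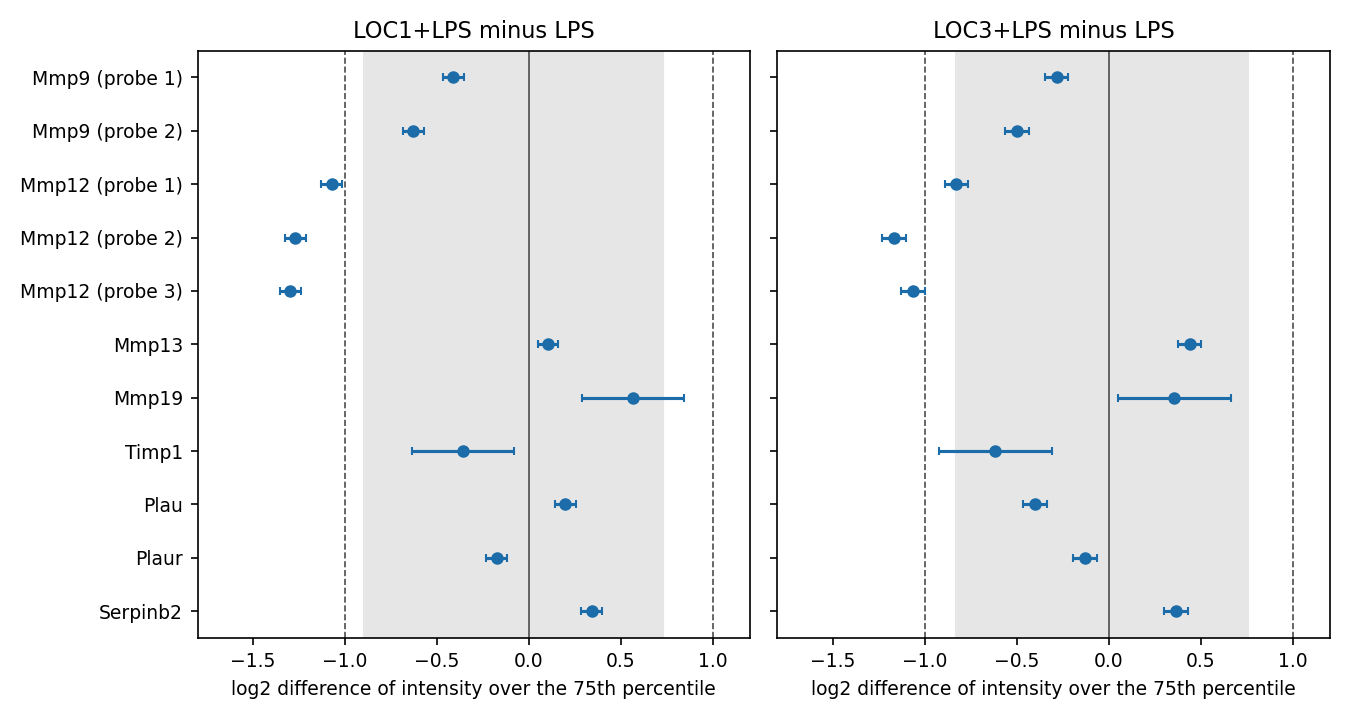
Log2 difference from LPS with LOC1 (left) and LOC3 (right) for the 11 probes well above background on all 3 arrays, where bars are 1 spot SD on either side, the grey band holds the 5th to 95th percentile of all genes compared and dashed lines mark 2-fold. All 3 Mmp12 probes lie left of the 2-fold line with LOC1 and 2 of them with LOC3, and no other probe passes a line.

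Plau encodes urokinase, the protease that activates plasminogen. Its brightest probe (chr14:21662487-21662546) read 462 with LPS, 490 with LOC1+LPS and 326 with LOC3+LPS. The log2 difference from LPS was 0.20 with LOC1 and -0.40 with LOC3, so the readings lay on either side of LPS, each under 2-fold. Against unchallenged macrophages Plau was listed at -2.71 with LPS, or 6.52-fold lower, at -2.47 with LOC1+LPS and at -3.07 with LOC3+LPS. Plau thus fell on every array relative to the unchallenged level. Its dimmer probe (chr14:21659855-21660221) read 33.9 with LPS, 23.5 with LOC1+LPS and 6.25 with LOC3+LPS, the last not well above background. On that probe the log2 difference with LOC1 was -0.41, opposite in sign to the brightest probe.

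Plaur encodes the urokinase receptor, which is tethered to the membrane by a lipid anchor and brings urokinase to the cell surface. Its probe (chr7:25260569-25260628) read 26894 with LPS, 22037 with LOC1+LPS and 22881 with LOC3+LPS. The readings with lactobacilli lay at log2 differences of -0.17 (LOC1) and -0.13 (LOC3) from LPS, and these signs turned, to 0.04 and 0.05, when arrays were scaled to their median instead. The deposited ratio to unchallenged macrophages was 1.91 with LPS, or 3.77-fold higher, with 1.77 in LOC1+LPS and 1.82 in LOC3+LPS. Plaur therefore rose with LPS with or without lactobacilli, while the gene of its ligand, Plau, fell.

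Serpinb2 encodes PAI-2, a serpin that inhibits urokinase and is kept largely inside macrophages. Its probe (chr1:109421496-109421555) read 354 with LPS, 415 with LOC1+LPS and 424 with LOC3+LPS. Both strains read above LPS, by 0.34 and 0.36 on the log2 scale, under 2-fold. The deposited ratios were 6.79 with LPS, 7.17 with LOC1+LPS and 7.19 with LOC3+LPS. The intensity that the first of these implies for unchallenged macrophages, 3.2, lies under the lowest intensity well above background, so that the rise with LPS is given as at least 21.7-fold.

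**Figure D3:**
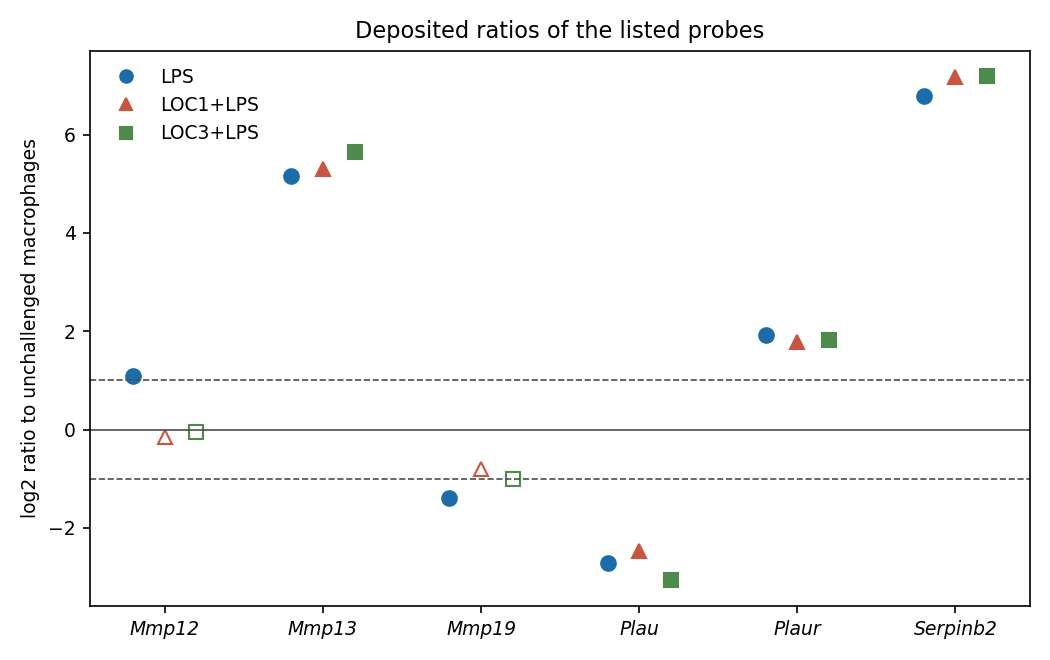
Log2 ratio to unchallenged macrophages for 6 genes with a listed probe well above background, in the 3 conditions; filled symbols are the authors' deposited ratios, open symbols were rebuilt from the intensities where the cell was blank, and dashed lines mark 2-fold. Mmp13, Plaur and Serpinb2 lie above the upper line and Plau below the lower line in all 3 conditions. Mmp12, drawn by its only listed probe and not by its brightest, and Mmp19 pass a line with LPS alone.

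Against unchallenged macrophages, 5 of the 9 genes were listed as higher with LPS alone (Mmp12, Mmp13, Mmp14, Plaur and Serpinb2), 4 of them through signals well above background, and 2 as lower (Mmp19 and Plau). Mmp12 was listed through 1 of its 3 probes, which was not the brightest one that stood for the gene between arrays. Of all 36870 gene names, 9.70% had a ratio listed as higher and 8.66% as lower. A gene without a listed ratio, such as Mmp9 or Timp1, cannot be called unchanged from the table.

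The strains were also set against each other. None of the 8 genes differed by 2-fold between LOC1+LPS and LOC3+LPS, where 0.798% of the 19414 genes compared were higher with LOC1 and 1.89% lower. The log2 differences of LOC1+LPS from LOC3+LPS ran from -0.34 for Mmp13 to 0.60 for Plau, with a median of -0.03 beside -0.02 for all genes. The Plau difference was 9.60 times the spot SD of bright probes, and 1.95% of all genes had a higher one. For Mmp12 the 3 probes gave -0.24, -0.10 and -0.23, each lower with LOC1 than with LOC3.

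**Figure D4:**
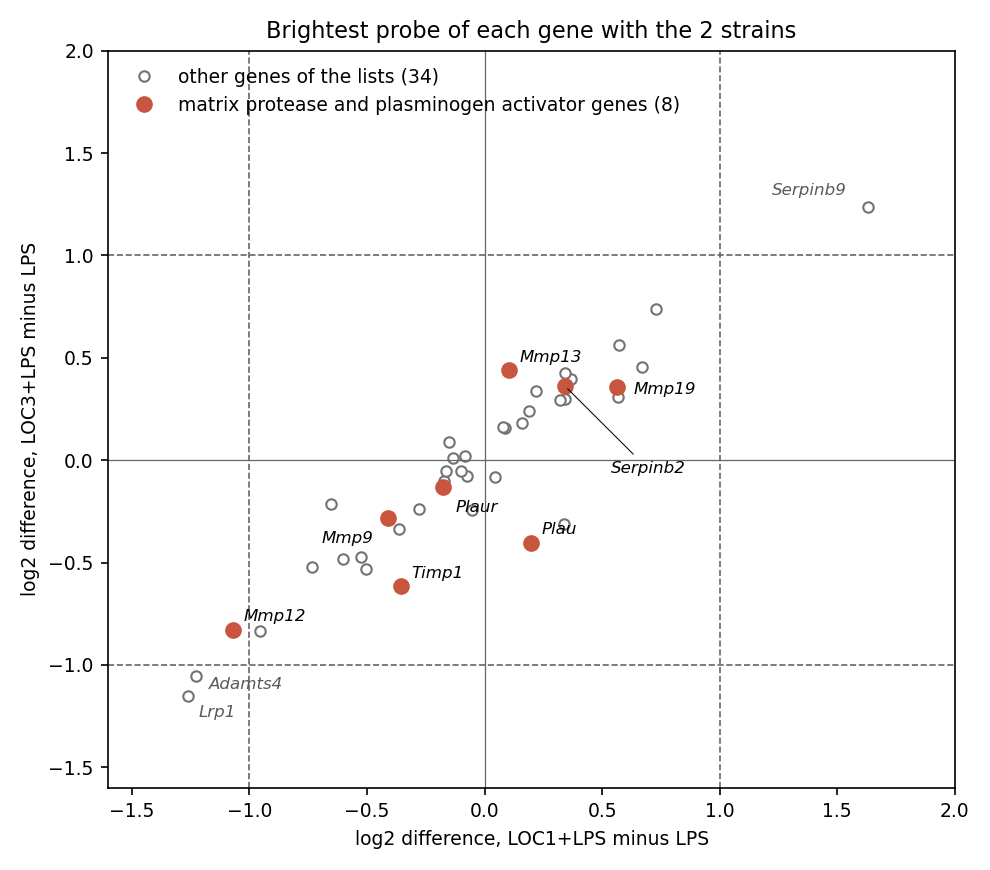
Log2 difference from LPS with LOC1 (horizontal) and with LOC3 (vertical) by the brightest probe of each gene; filled symbols are the 8 genes described and open symbols 34 other genes of the protease, inhibitor and plasminogen lists, and dashed lines mark 2-fold. Both axes subtract the same LPS array; Mmp12 lies past the line on the LOC1 axis and inside it on the LOC3 axis, and Plau lies right of 0 and below 0.

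Other genes of the same pathways were read from 7 lists with 64 genes, of which 35 could be compared with each strain. With LOC1, 1 of the 35 rose and 2 fell, with a median log2 difference of -0.05, and with LOC3, 2 rose and 2 fell, with a median of 0.01. Of 18 other MMP genes, 5 could be compared and none passed 2-fold with either strain, at log2 differences from -0.73 to -0.05 with LOC1 and from -0.52 to -0.05 with LOC3. Of 5 other metalloprotease inhibitors, 2 could be compared, Timp2 and Reck, and neither passed 2-fold. Of 12 ADAM and ADAMTS proteases, 1 fell with each strain and none rose. This was Adamts4, an aggrecanase, which read 2797 with LPS, 1105 with LOC1+LPS and 1253 with LOC3+LPS, at log2 differences of -1.23 and -1.05. Its detected probes ran from -1.24 to -1.04 with LOC1 and from -1.05 to -0.86 with LOC3. Median scaling, which shifts all differences with a strain alike, would put it under 2-fold with LOC3. A dimmer Adamts4 probe was listed with LPS at 2.56 against unchallenged macrophages, taken as at least 3.77-fold higher.

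In the plasminogen system, 9 other genes were listed and 6 could be compared with LOC1 and 7 with LOC3. Lrp1, the endocytic receptor that clears complexes of urokinase with its inhibitors, fell with both strains, reading 4242 with LPS, 1636 with LOC1+LPS and 1778 with LOC3+LPS, at log2 differences of -1.26 and -1.15. Its 3 probes spread widely, from -2.27 to -0.53 with LOC1 and from -1.72 to -0.08 with LOC3. Median scaling, which shifts all differences with a strain alike, would put its brightest probe under 2-fold with LOC3. Plg, the plasminogen gene, was well above background with LOC3+LPS alone, at 74.1 against 8.35 with LPS and 9.64 with LOC1+LPS. Its difference is a bound, at 2.29 on the log2 scale over LPS and -2.34 for LOC1+LPS against LOC3+LPS. Plat, tissue plasminogen activator, was not well above background on any array.

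Among 12 other clade B serpins, the family of PAI-2, 4 could be compared, and 1 rose with both strains. This was Serpinb9, an inhibitor of granzyme B, which read 1345 with LPS, 3854 with LOC1+LPS and 2948 with LOC3+LPS, at log2 differences of 1.63 and 1.24. Serpinb8 had log2 differences of 0.57 and 0.56, under 2-fold, on the same side of LPS as Serpinb2. The dim Serpinb1a, at 0.34 with LOC1 and -0.31 with LOC3, and Serpinb6a, at -0.08 and 0.02, lay on either side of LPS.

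The cell type was checked on the same arrays. All 8 macrophage markers were well above background on each array, and none passed 2-fold by its brightest probe, with log2 differences from -0.89 for Csf1r to 0.66 for Mertk with LOC1 and from -0.70 to 0.62 with LOC3. A dimmer Csf1r probe passed it with LOC1, at -1.03, in the direction of Mmp12, and stood at -0.94 with LOC3. Of the osteoclast markers, 5 of 6 were detected with LPS and with LOC1+LPS and 3 with LOC3+LPS, and of the neutrophil markers 3, 3 and 2 of 5. Epithelial markers were detected for 1, 0 and 0 of 4 genes and lymphocyte markers for 1 of 3 on each array. Fibroblast markers were detected for 4 of 5 genes on each array, all dim, with a median log2 difference of -0.55 with LOC1 and -0.47 with LOC3. Of these, 1 passed 2-fold with LOC1, Dcn, at -1.10, with -0.82 for LOC3, in the direction of Mmp12, and Pdgfra lay on the other side of LPS, at 0.15 and 0.52. The fifth gene, Col3a1, was not well above background. The part of these marker signals in the Mmp12 difference was not tested.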

How the data were processed

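RNA from LPS-stimulated RAW264.7 macrophages, without lactobacilli or with LOC1 or LOC3, was hybridised to 1-colour Agilent mouse arrays, 1 per condition. The authors deposited the intensity of each spot, background-corrected by Feature Extraction (12.0.3.1 in the file headers). They also deposited log2 ratios made in GeneSpring, with cells under 2-fold left blank. Blank cells were rebuilt from the intensities and the constant by which each column differed from them, 0.03 log2 for LOC1+LPS and 0.04 for LOC3+LPS.

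Outlier and control spots were left out, spots of a probe were averaged, and log2 intensity less the array's 75th percentile was compared where the scanner software marked the gene's probe as well above background on 1 or both arrays of the pair. Of 62976 spots per array, 59305 were not controls and 0 were saturated. The number of arrays limits the precision. Signals not marked so were lifted to the lowest one that was, where under it, at 16.3, 14.5 and 19.8 for LPS, LOC1+LPS and LOC3+LPS, and the difference is a bound. Differences of at least 2-fold were called. Python 3.11.15, numpy 2.4.6, pandas 2.3.3, matplotlib 3.10.9 and limma 3.58.1 (normexp, offset 50) were used. The procedure was tested on simulated data.

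The genes, the lists and the motifs were chosen with earlier results of these data known. Text names all 9 genes, list genes past 2-fold with either strain, and the 3 genes nearest to any of the 9 past 2-fold with both strains, of which there was none. Other list genes were named for their role after their values were seen. Motifs were searched on both strands. Probe positions are those of mm9. Alternatives were median scaling of the arrays, quantile normalization, a 75th percentile taken over detected probes, normexp, a 3-fold threshold, the deposited ratios, the mean over a gene's detected probes, keeping outlier spots, requiring both arrays above background, and dropping the filter and the floor.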

Additional observations from a re-analysis of the deposited data

Results flagged for a closer look

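Plau, the urokinase gene, was singled out because the strains placed it on opposite sides of LPS alone. By its brightest probe the log2 difference from LPS was 0.20 with LOC1 and -0.40 with LOC3, and LOC1+LPS stood 0.60 above LOC3+LPS on the log2 scale. With 1 array per condition the difference was not tested. Its dimmer probe differed by -0.41 with LOC1 and was not well above background with LOC3.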

How the results depend on the processing

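No paired analysis was possible because each condition has 1 array. The 8 genes gave 16 differences from LPS, recomputed 128 times over the alternatives. In 58 of these the value was identical, as either filter and the outlier spots kept changed none of them. The mean too was the same for a gene with 1 probe well above background on either array of the pair. Plau with LOC3 came to -0.54 as this mean. Its dimmer probe entered there with its LOC3+LPS signal lifted to the lowest one well above background. Of the other 70, 43 moved by less than the spot SD, 27 moved by more and 3 had another sign (Plau with LOC1, -0.11 as the mean of its detected probes, and Plaur at 0.04 and 0.05 under median scaling). Mmp12 ran from -1.21 to -0.85 with LOC1 and from -1.02 to -0.64 with LOC3. The count of genes that fell with LOC1, 1 as reported, was 0 under median scaling, at a 3-fold threshold and from the deposited ratios, which list Mmp12 in 1 column only, and 2 (Mmp12 and Mmp14) with no filter and no floor. With the mean of the detected probes, 1 gene, Mmp12, fell with LOC3. With no filter and no floor, 1 gene, Mmp14, was lower with LOC1 than with LOC3, from signals at background. At 3-fold, 1 gene, Plau, was listed as lower with LPS. At this threshold 4 were listed as higher (Mmp13, Mmp14, Plaur and Serpinb2), and Mmp12 was not. Over all genes, higher and lower calls with LOC1, with LOC3 and between the strains were 213 and 208, 252 and 158, and 42 and 111 under normexp, 334 and 511, 296 and 416, and 37 and 68 where both arrays had to be above background, 1434 and 2405, 1649 and 2131, and 1181 and 1633 with no filter and no floor, and 184 and 228, 258 and 144, and 70 and 218 at 3-fold. The cause of these changes was not tested. Signals near background limit Mmp14, Mmp19 and Timp1.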

Other observations

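Lysosomal cysteine cathepsins and the genes that process or induce pro-MMPs read above LPS with both strains by their brightest probes, where 49.9% of all genes lay below LPS with LOC1 and 45.9% with LOC3. All 6 cathepsin genes listed were well above background on each array, and none passed 2-fold, with log2 differences from 0.19 to 0.73 and a median of 0.34 with LOC1, and from 0.24 to 0.74 and a median of 0.32 with LOC3. Other probes went the other way, since the lowest detected probe stood at -0.09 and -0.12 for Ctsh, cathepsin H, and at -0.30 and -0.13 for Furin. Ctsl, cathepsin L, had the highest of these at 0.73 and 0.74. Furin, which cleaves the propeptide of membrane-type MMPs, differed by 0.08 and 0.16 on its brightest probe, and Bsg, which encodes the MMP inducer basigin, by 0.32 and 0.30.

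Against unchallenged macrophages, the 4 fibroblast markers detected were all listed as higher with LPS alone. Col1a1, a type I collagen gene, was listed at 4.14, taken as at least 3.30-fold higher, and Dcn, the matrix proteoglycan decorin, at 4.27, taken as at least 5.01-fold higher. The signals implied for unchallenged macrophages were under the detection limit for all 4, and the bounds of the other two fell under 2-fold, at 1.86-fold for Col1a2 and 1.42-fold for Pdgfra.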
